A study of Mus musculus with 49 samples.

Results

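Single mouse embryonic stem (ES) cells that had been collected in an early-S sort gate were set against cells collected in a G1 sort gate, each profiled by single-cell Hi-C, an assay that ligates and sequences DNA segments lying close together in the nucleus. The members are all cells of the conditions 1CD_eS and 1CD_G1 of the diploid 2i table that passed the authors' quality control, whatever cell cycle group the authors later gave them. There were 303 cells in the early-S gate and 280 in the G1 gate, 583 of the 1992 passing cells of that table and of the 4098 of the whole series. Each gate had 2 large libraries, diploid 21 and 22 (154 and 143 cells) for the early-S gate and diploid 19 and 20 (141 and 134 cells) for the G1 gate. The library diploid 15_16_17_18 held a few cells of every gate, 6 of the early-S gate and 5 of the G1 gate.

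All cells came from 1 diploid F1 hybrid ES line, a cross of 129/SV-Jae and castaneus mice, and by their table they were kept in 2i, a culture medium whose inhibitors hold ES cells in the naive state. Cells were fixed with formaldehyde, permeabilised and, for the sort, stained with Hoechst, a DNA dye, and with an antibody against Geminin. The fluorescence limits of the gates are not given in the labels. The title of the series asks how chromosome organisation varies through the cell cycle, and the gates give a placement of cells that does not use their contacts. One cell line is behind every value, and the labels do not say whether the libraries came from separate cultures or sorts. Cell names of a gate share 1 stem, 1CDX2 for the early-S gate and 1CDX1 for the G1 gate, with numbers that run on from library to library.

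In G1 a cell has not yet copied its DNA and has little Geminin, an inhibitor of replication licensing that accumulates once S phase begins and is destroyed in mitosis. Replication starts in gene-rich, open chromatin, so that early in S the early-replicating regions are present in more copies than the late-replicating ones. Chromosomes leave mitosis as compact rods and unfold during G1, when insulated domains and the A and B compartments, the segregated open and closed chromatin, are re-established. ES cells are known for a short G1.

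Most listed cells of both gates passed, and 1 library was shallower than the rest. Of 390 cells listed per gate, 77.7% passed in the early-S gate and 71.8% in the G1 gate (exact Clopper-Pearson 95% intervals 73.2% to 81.7% and 67.0% to 76.2%, for counting error only). The median cell held 276398 contacts in diploid 21 and 274271 in diploid 22 of the early-S gate, against 199393 in diploid 19 and 271864 in diploid 20 of the G1 gate. Summed over passing cells, these libraries held 39138356, 35692276, 26267359 and 33570739 contacts in the same order. Diploid 19 thus stood apart from the other 3, and the gate differences in feature means and group shares, the count of features without overlap and the early-S-group differences were recomputed without it. Each library had its own sequencing lane, and the large libraries used the same 192 pairs of cell barcodes. Gate and lane therefore cannot be told apart in the large libraries, and diploid 15_16_17_18 alone sets both gates side by side in a lane.

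The authors' cell cycle groups, which were made from the contacts and not from the sort, followed the gates closely. In the early-S gate 94.8% of the cells of diploid 21 and 94.4% of diploid 22 were placed in the early-S group, against 15.6% in diploid 19 and 22.4% in diploid 20 of the G1 gate. The G1 group took 1.95% and 0.699% of the cells in early-S-gate libraries, against 81.6% and 76.1% in G1-gate libraries. Pooled, these are 4 of 303 cells in the early-S gate (1.32%, exact 95% interval 0.361% to 3.35%) and 221 of 280 in the G1 gate (78.9%, 73.7% to 83.6%). The late-S/G2 group held 14 of 303 cells of the early-S gate (4.62%) and 6 of 280 of the G1 gate (2.14%). No cell of either gate was placed in post-M or pre-M, which allows a share of up to 0.990% in the early-S gate and 1.07% in the G1 gate. The difference in the early-S group was 75.6 points (early-S gate minus G1 gate, 2 libraries each), with no overlap of libraries. An exact two-sided permutation of libraries gave p = 0.333, the smallest p that 2 against 2 libraries allow, so no gate difference in these data can pass 0.05 and each is read against the gaps between libraries of the same gate.

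**Figure D1:**
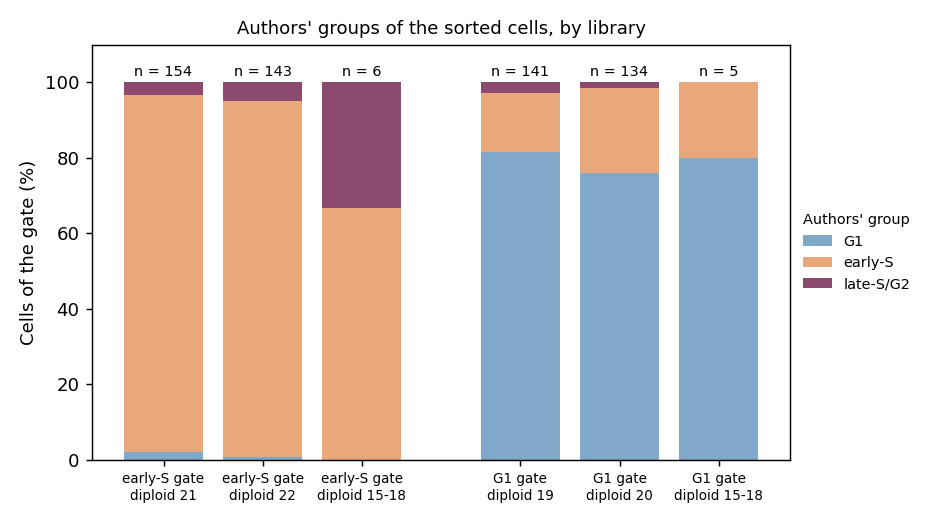
Share of each gate's passing cells (in %) in the authors' G1, early-S and late-S/G2 groups, 1 stacked bar per library, early-S gate on the left and G1 gate on the right, with the number of cells above each bar. The early-S group takes 94.8% and 94.4% of the large early-S-gate libraries and 15.6% and 22.4% of the large G1-gate libraries, while the bars of diploid 15_16_17_18 rest on 6 and 5 cells.

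In diploid 15_16_17_18 the gates separated in the same way, with 4 of 6 early-S-gate cells and 1 of 5 G1-gate cells in the early-S group, and 0 and 4 in the G1 group. The authors' order of the 1992 cells put the median cell at 878.5 in diploid 21 and 924 in diploid 22, against 242 in diploid 19 and 286 in diploid 20. An early-S-gate cell stood later in the order than a G1-gate cell in 95.2% to 97.2% of cell pairs, over the 4 pairs of large libraries. Of the G1-gate cells, 18 (6.43%) lay past the 10th percentile of the early-S gate. Of the early-S-gate cells, 12 (3.96%) lay before the 90th percentile of the G1 gate.

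Over the 15 features of the table, library means of the 2 gates did not overlap for 12 (80%), 8 higher in the early-S gate (53.3%) and 4 lower (26.7%). The exact permutation test called 0 of 15 at p under 0.05, as its floor requires. With 2 against 2 libraries, a share of 0.333 of random placements of the gate labels leaves no overlap for any feature. Counts of features without overlap are to be read against that share. The differences of the remaining 3 features, the alignment score, contacts per cell and the duplicated share, were smaller than the gap between diploid 19 and 20. Among the 12, this also held for EE loop enrichment and the share without digestion. The difference exceeded the larger gap between libraries of a gate for 10 of 15 features. When diploid 15_16_17_18 was counted as a further library on each side, 8 of 15 features had no overlap. For 5 features the difference exceeded 1 SD of single cells within a library, namely the short-range share, the replication score, the mitotic-band share and the compartment scores in trans and in cis.

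**Figure D2:**
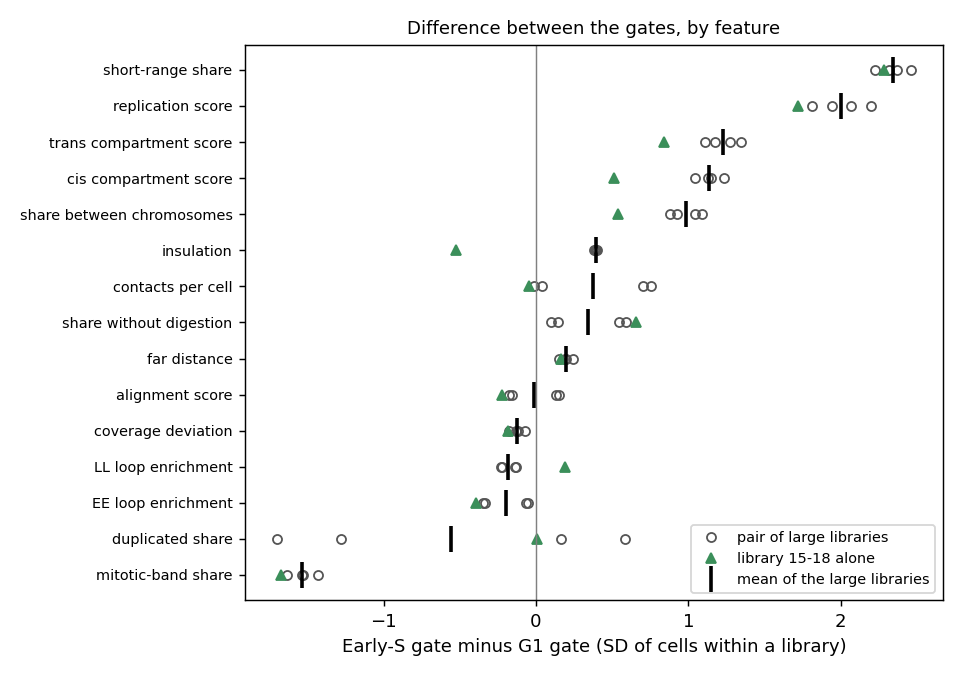
Early-S gate minus G1 gate for each of the 15 features, in SD of single cells within a library (horizontal axis). Circles are the 4 pairs of large libraries, bars their mean and triangles the difference within diploid 15_16_17_18. The short-range share lies between 2.23 and 2.46 SD in every pair, and the circles of the alignment score, contacts and the duplicated share fall on both sides of 0.

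Contacts were more short-range in the early-S gate. The short-range share, a near band of contact distances defined by the authors, with limits not stated in the files, averaged 71.9% in diploid 21 and 72.4% in diploid 22, against 58.5% in diploid 19 and 59.3% in diploid 20. The difference of 13.2 points was 16.4 times the larger gap between libraries of a gate, and an early-S-gate cell had the higher share in 95.04% to 96.2% of cell pairs. The share in the band that the authors call mitotic, which is high in condensed chromosomes, was lower in the early-S gate, at 11.9% and 11.6% against 16.1% and 15.8% in the G1 gate. Both shares had the same direction in diploid 15_16_17_18, where the short-range share was 71.9% in early-S-gate and 59.0% in G1-gate cells and the mitotic-band share 11.5% and 16.1%.

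The replication score separated the gates about as well. The score, named for replication by the authors and not defined in the files, averaged 1.188 in diploid 21 and 1.202 in diploid 22, against 1.077 in diploid 19 and 1.085 in diploid 20, a difference of 0.113 (means 1.195 ± 0.0101 in the early-S gate and 1.081 ± 0.00532 in the G1 gate, SD, n = 2 each). In 93.5% to 95.05% of cell pairs the early-S-gate cell had the higher score. Between libraries of a gate, a cell of diploid 21 had a higher score than one of diploid 22 in 44.7% of pairs, and a cell of diploid 19 than one of diploid 20 in 32.05%. In diploid 15_16_17_18 the score was 1.185 in early-S-gate cells and 1.087 in G1-gate cells.

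Among passing cells, compartment scores and the share of contacts between chromosomes were higher in the early-S gate. The cis compartment score, the contrast of A and B compartments within chromosomes, averaged 0.432 and 0.439 in early-S-gate libraries and 0.336 and 0.345 in G1-gate libraries. The trans compartment score, the same contrast between chromosomes, averaged 0.318 and 0.334 in the early-S gate and 0.210 and 0.216 in the G1 gate. The share of contacts between chromosomes was 7.50% and 7.41% in the early-S gate and 5.79% and 5.49% in the G1 gate. With the cells that failed quality control included, this last difference was 0.0740 points (early-S gate minus G1 gate) and the libraries of the gates overlapped (exact permutation p = 1), while the compartment differences were 0.0907 in cis and 0.127 in trans. All 3 features kept their direction in diploid 15_16_17_18, with smaller differences of 0.0429, 0.0776 and 0.992 points against 0.0954, 0.113 and 1.82 points in the large libraries. The scale of the scores is not defined, so these values serve only to compare cells of this table.

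Insulation and the far distance differed little in their means. Insulation, a score of how strongly domain borders separate contacts, averaged 2.507 and 2.509 in the early-S gate and 2.458 and 2.459 in the G1 gate. The difference of 0.0498 was 0.392 SD of single cells, yet libraries of a gate lay within 0.00180 of each other. In diploid 15_16_17_18 the order was turned, with 2.448 in 6 early-S-gate cells and 2.515 in 5 G1-gate cells. The mean distance of far contacts was 27.4 and 27.2 Mb in the early-S gate and 26.3 and 26.5 Mb in the G1 gate, and the early-S-gate cell had the longer distance in 56.4% to 58.5% of cell pairs. The alignment score between chromosomes was 0.290 and 0.292 in the early-S gate, inside the 0.276 and 0.308 of the G1 gate.

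Loop enrichments, read as log2 values for loops that the table names EE and LL, had lower means in the early-S gate. EE enrichment was 0.62 and 0.63 in the early-S gate and 0.73 and 0.64 in the G1 gate, where the gap between diploid 19 and 20 (0.09) exceeded the difference between the gates (-0.06), which was -0.02 without diploid 19 and -0.11 without diploid 20. LL enrichment was 0.90 and 0.93 in the early-S gate and 0.98 and 0.98 in the G1 gate, a difference of -0.07 that was 2.05 times the larger gap. In diploid 15_16_17_18 LL enrichment went the other way, 1.05 in early-S-gate and 0.99 in G1-gate cells. Of the quality measures, the share without digestion was 36.3% and 36.2% in the early-S gate and 34.4% and 35.8% in the G1 gate, a difference of 1.09 points that was 0.387 without diploid 19 and 1.79 without diploid 20. The duplicated share was 2.62% and 2.90% in the early-S gate and 3.77% and 2.504% in the G1 gate, so that diploid 19 was the highest of the 4. Mean coverage deviation was 0.369 and 0.358 in the early-S gate and 0.386 and 0.399 in the G1 gate, and 0 of 583 cells reached 1. The highest values were 0.998 and 0.987 in the early-S gate and 0.977 and 0.976 in the G1 gate. All 583 cells had passed quality control, so a limit of that filter near 1 could have set this count.

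**Figure D3:**
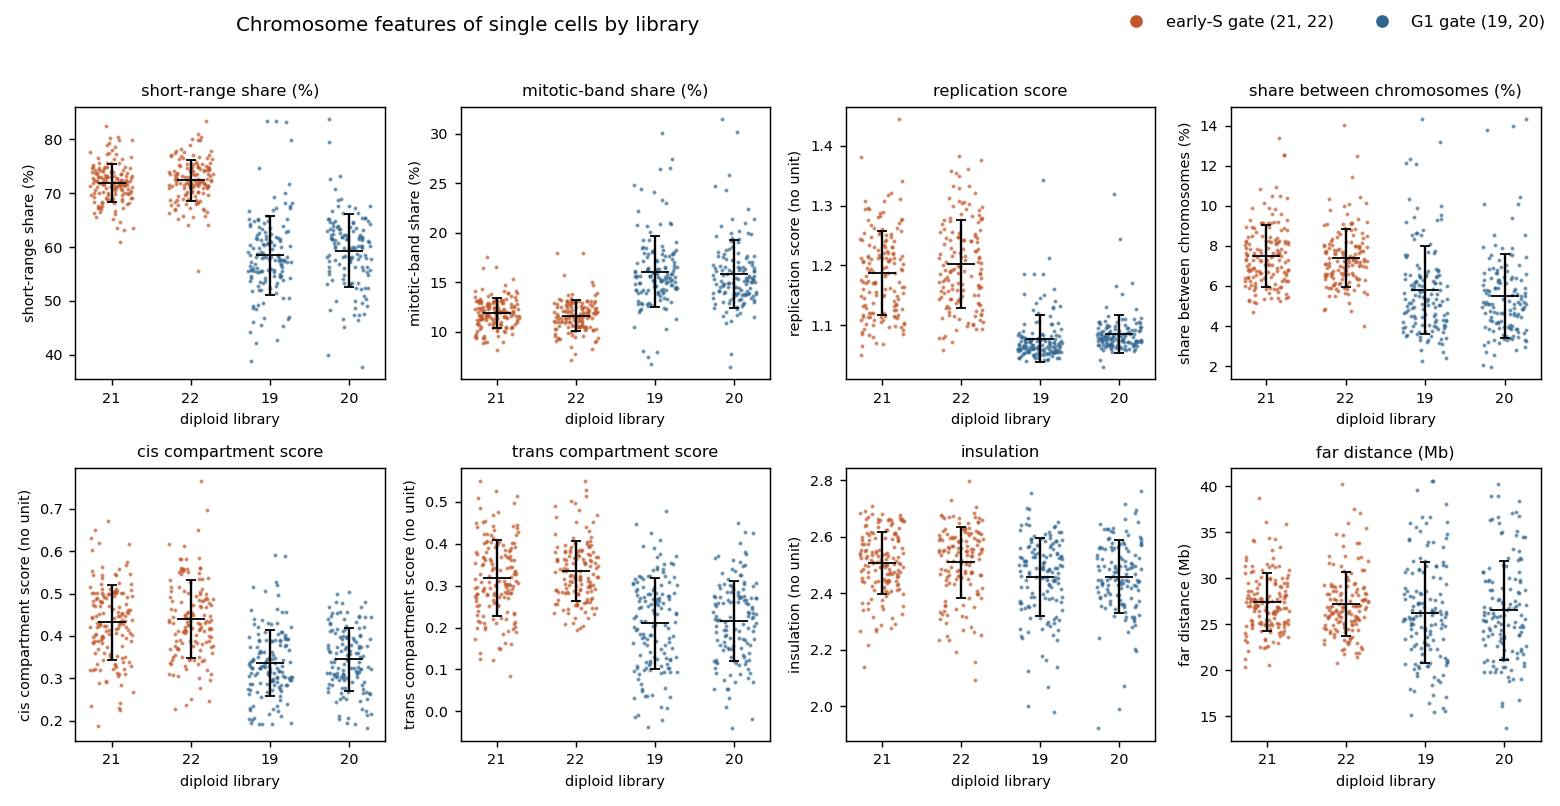
Single cells (points) of the large libraries for 8 features, with the mean and SD over cells of each library in black; early-S-gate libraries diploid 21 and 22 stand left of G1-gate libraries diploid 19 and 20. G1-gate cells are spread widely in short-range share (SD 7.37 and 6.76 points against 3.59 and 3.86 in the early-S gate) and narrowly in replication score (SD 0.0388 and 0.0319 against 0.0702 and 0.0732).

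The gates also differed in how much their cells varied. The SD over cells did not overlap between the gates for 12 of 15 features (80%), smaller in the early-S gate for 8 and larger for 4. The short-range share had an SD of 3.59 and 3.86 points in early-S-gate libraries and 7.37 and 6.76 points in G1-gate libraries. The SD of the mitotic-band share was 1.49 and 1.59 points in the early-S gate and 3.59 and 3.45 in the G1 gate, and that of the far distance 3.16 and 3.47 Mb in the early-S gate and 5.54 and 5.41 Mb in the G1 gate. The replication score went the other way, with an SD of 0.0702 and 0.0732 in the early-S gate and 0.0388 and 0.0319 in the G1 gate. Cells of the G1 gate thus spanned a wider range of short-range shares and a narrower range of replication scores than cells of the early-S gate.

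Of the 338 early-S-group cells of both gates, 285 came from the early-S gate and 53 from the G1 gate. The mean replication score of the G1-gate cells lay closer to that of G1-group cells of the G1 gate than to that of early-S-group cells of the early-S gate, while their contact features lay at various points between these sets or beyond both. Their short-range share averaged 66.8% in 22 cells of diploid 19 and 65.9% in 30 cells of diploid 20, against 71.8% and 72.1% for early-S-group cells of the early-S gate. For comparison, G1-group cells of the G1 gate averaged 56.1% in diploid 19 and 56.9% in diploid 20. The replication score of the early-S-group cells was 1.187 and 1.197 in the early-S gate and 1.093 and 1.088 in the G1 gate, where G1-group cells had 1.070 and 1.080. On the scale from the mean of G1-group cells in the G1 gate to that of early-S-group cells in the early-S gate, the early-S-group cells of the G1 gate had gone 63.8% of the way in short-range share and 13.3% of the way in replication score. They had gone 67.2% of the way in trans compartment score, 66.6% in the share between chromosomes and 47.7% in cis compartment score.

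Counted by cell, 259 of 285 early-S-group cells of the early-S gate (90.9%) and 17 of 53 of the G1 gate (32.1%) exceeded the 90th percentile of the replication score of G1-group cells in the G1 gate (1.101). The highest score was 1.445 among the early-S-group cells of the early-S gate and 1.186 among those of the G1 gate. Library means of early-S-group cells did not overlap between the gates for 11 of 15 features (73.3%), 7 higher (46.7%) and 4 lower (26.7%) in the early-S gate, each with an exact permutation p of 0.333. In the other 2i conditions, the replication score of early-S-group cells lay between 1.153 and 1.199 over 4 libraries of 1CDU and between 1.170 and 1.231 over 4 libraries of NoSort, above both G1-gate libraries. G1-group cells ran from 1.070 to 1.129 in 1CDU, partly above these G1-gate values too, and from 1.049 to 1.093 in NoSort. Early-S-group cells averaged 140307 contacts in 1CDU and 120591 in NoSort, against 211434 in the G1 gate. The part of condition and depth in these levels was not tested.

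**Figure D4:**
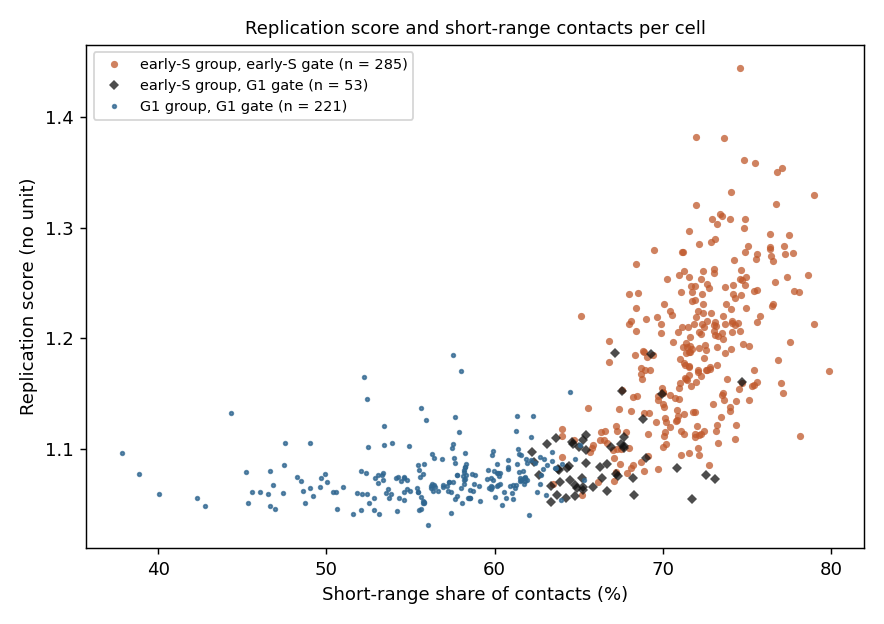
Replication score (vertical axis, no unit) against the short-range share (horizontal axis, in %) of single cells, for early-S-group cells of the early-S gate, early-S-group cells of the G1 gate and G1-group cells of the G1 gate. The 53 early-S-group cells of the G1 gate (diamonds) have a median score of 1.082, against 1.189 for those of the early-S gate and 1.072 for G1-group cells, whose short-range share runs from 37.8% to 65.3%.

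In several features the early-S-group cells of the G1 gate lay beyond both of the other sets. Their far distance was 29.3 Mb in diploid 19 and 29.9 Mb in diploid 20, longer than the 27.5 and 27.1 Mb of early-S-group cells of the early-S gate and the 25.7 and 25.5 Mb of G1-group cells of the G1 gate. Insulation was 2.561 and 2.536 in these cells, against 2.513 and 2.518 in early-S-group cells of the early-S gate and 2.445 and 2.439 in G1-group cells of the G1 gate. At like short-range share, given below, the order of the early-S-group sets was reversed for insulation. The alignment score was lowest in them, 0.245 and 0.259, against 0.289 and 0.294 in early-S-group cells of the early-S gate and 0.282 and 0.324 in G1-group cells of the G1 gate. Over 4 libraries of 1CDU, early-S-group cells had a far distance of 29.6 to 30.6 Mb and an alignment score of 0.181 to 0.221. Neither trait was thus particular to the G1 gate. In NoSort the values were 26.9 to 28.2 Mb and 0.248 to 0.275. Insulation was 2.47 to 2.512 in 1CDU and 2.397 to 2.454 in NoSort, below both G1-gate libraries. Groups were assigned from the contacts, so the position of early-S-group cells of the G1 gate in contact features is a description.

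Early-S-group cells were also compared at like short-range share, in a bin from 65% to 70%, the only one of the 5-point bins with at least 10 cells of each gate. This comparison was chosen after the data had been seen. The replication score was 1.144 in 38 cells of diploid 21 and 1.147 in 29 cells of diploid 22, against 1.104 in 14 cells of diploid 19 and 1.094 in 13 cells of diploid 20. Libraries again did not overlap, although the short-range share itself still averaged 68.1% in early-S-gate and 66.9% in G1-gate cells inside the bin. In bins under the minimum, the replication score from 70% to 75% was 1.200 in 170 early-S-gate cells and 1.089 in 5 G1-gate cells. From 60% to 65% the scores lay closer, at 1.100 in 5 early-S-gate cells and 1.079 in 20 G1-gate cells.

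The pooled gate difference was split into a part from the different shares of the authors' groups and a part from differences within groups. With mean shares and mean levels of both gates, the shift between groups accounted for 63.6% of the difference in short-range share and 40.3% of that in replication score. This split leans on the 4 G1-group cells of the early-S gate. With group levels of the G1 gate and group shares of the early-S gate, a choice made after the data had been seen, the shift between groups accounted for 60.7% and 13.5%. In the G1 gate the short-range share ran from 37.8% to 65.3% in G1-group cells and from 62.2% to 74.7% in early-S-group cells. The groups were made from the contacts, so a large group part for the short-range share can be built in. It cannot be weighed against that of the replication score.

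Some features were related alike inside both gates and others not. Spearman's rho of the short-range share with the replication score was 0.596 and 0.574 in the early-S gate and 0.370 and 0.328 in the G1 gate. With the cis compartment score the short-range share had a rho of 0.261 and 0.222 in the early-S gate and 0.482 and 0.465 in the G1 gate. Spearman's rho of the replication score with insulation was -0.709 in diploid 21 and -0.705 in diploid 22, against 0.015 in diploid 19 and 0.070 in diploid 20. The short-range share ran with lower insulation in the early-S gate (rho -0.388 and -0.350) and with higher insulation in the G1 gate (0.483 and 0.465). Its rho with the share between chromosomes was -0.099 and -0.121 in the early-S gate and 0.555 and 0.587 in the G1 gate, and with the far distance -0.174 and -0.169 in the early-S gate and 0.524 and 0.504 in the G1 gate. Far distance and alignment score were inversely related in every library, with rho of -0.767 and -0.782 in the early-S gate and -0.810 and -0.774 in the G1 gate. For loop enrichment and the replication score, rho ran from -0.107 (EE, diploid 20) to 0.076 for EE and from -0.192 to 0.022 for LL over the 4 libraries, and Pearson's r in diploid 20 was -0.274 for EE and -0.210 for LL. Cells of 1 library share its preparation and the features come from the same contacts, so these 14 relations are descriptions without a test.

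Binned by short-range share over all cells, the early-S gate showed 2.563 from 65% to 70% (69 cells), 2.511 from 70% to 75% (170 cells) and 2.449 from 75% to 80% (47 cells). The G1 gate showed insulation of 2.422 from 50% to 55% (45 cells), 2.468 from 55% to 60% (84 cells), 2.524 from 60% to 65% (82 cells) and 2.523 from 65% to 70% (30 cells). Over these bins insulation was higher at higher short-range share up to 65% in the G1 gate, and lower at higher short-range share in the early-S gate. In the same bins the far distance was 28.1, 27.1 and 26.6 Mb in the early-S gate and 24.8, 26.9, 28.1 and 28.96 Mb in the G1 gate. These bins cover mostly different ranges, so they do not show opposite courses at like short-range share. In sparse bins, early-S-gate insulation was 2.525 from 60% to 65% (8 cells) and 2.256 from 80% to 85% (8 cells). G1-gate insulation was 2.585 from 70% to 75% (5 cells), 2.331 from 75% to 80% (2 cells) and 2.266 from 80% to 85% (4 cells).

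A few cells stood against their gate. The 6 late-S/G2-group cells of the G1 gate, 4 in diploid 19 and 2 in diploid 20, had short-range shares of 79.5% to 83.8%, where the median of the gate was 58.6%. Their replication scores ran from 1.082 to 1.343. Contacts per cell in these 6 had a lowest value of 191264, a median of 426113 and a highest value of 654346, against a median of 227260 over the G1 gate. The duplicated share of the 4 in diploid 19 was 5.64%, 6.65%, 5.16% and 7.33%, against a mean of 3.77% in that library. In the 2 of diploid 20 it was 2.33% and 4.95%, against a mean of 2.504%. The part of depth and duplication in the placement of these cells was not tested. The 4 G1-group cells of the early-S gate had short-range shares of 63.2%, 60.9%, 63.5% and 55.6% and replication scores of 1.051, 1.128, 1.064 and 1.142. Of these 4, the cells at 1.128 and 1.142 had 13.4% and 14.02% of their contacts between chromosomes, where early-S-gate libraries averaged 7.50% and 7.41%.

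Set in the course over all 4 gates, the G1 to early-S step held most of the difference in some features and little in others. Means of the 2 large libraries of the G1, early-S, mid-S and late-S/G2 gates were 58.9%, 72.1%, 78.7% and 79.1% for the short-range share. The replication score was 1.081, 1.195, 1.283 and 1.126, so that the early-S gate had reached 56.1% of the way from the G1 gate to the mid-S gate. Cis compartment scores were 0.340, 0.436, 0.435 and 0.443, with the whole difference between the G1 and mid-S gates already present in the early-S gate. Contacts between chromosomes were most frequent in the early-S gate, at 5.64%, 7.46%, 6.18% and 4.69% in the same order. Insulation was 2.458, 2.508, 2.212 and 2.152, and the far distance 26.4, 27.3, 26.5 and 23.4 Mb, each highest in the early-S gate. LL loop enrichment was 0.98, 0.92, 0.75 and 0.71, lower at the step from the early-S to the mid-S gate by 0.16 against 0.07 at the step before it.

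**Figure D5:**
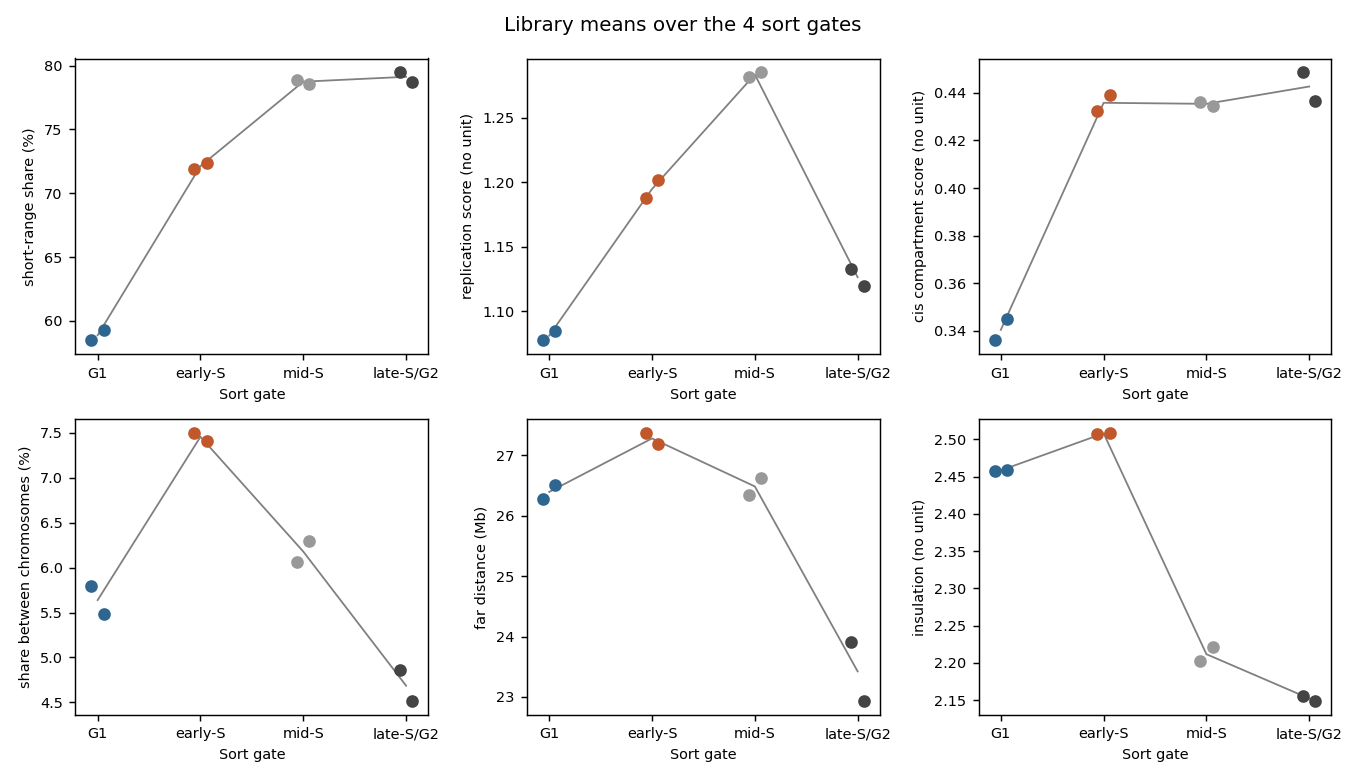
Library means of 6 features over the 4 sort gates in the order of the cycle, 2 large libraries a gate (points), with a line through the gate means; axes do not start at 0. The early-S gate has the highest share of contacts between chromosomes (7.46%), far distance (27.3 Mb) and insulation (2.508), while the replication score is highest in the mid-S gate (1.283).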

How the data were processed

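The authors' deposited table of diploid 2i cells holds 1 row per cell. Reads were aligned with Bowtie2 to mm9, per the submitters' processing notes. Contacts are a count per cell, per the file headers. Shares are deposited as a fraction and given here in percent; their denominators and band limits are not stated. The deposited scores (replication, compartments, insulation, alignment, coverage deviation) have no defined scale, and loop enrichment, also deposited without a unit, was taken as log2 because its values go below 0. Order, group, condition and quality flag are the authors'.

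Cells were joined to libraries by batch number. Features were averaged over the cells of a library and gate with at least 10 passing cells, then over libraries, and the early-S gate minus G1 gate difference was tested by exact two-sided permutation of libraries with no adjustment, since its smallest p is 0.333. The minimum leaves diploid 15_16_17_18 out of these tests. A share of cell pairs counts ties as 0.5. Shares of cells have exact Clopper-Pearson 95% intervals, and a count of 0 a limit of 3 cells over the total. Depth ranged from 26267359 to 39138356 contacts per large library. Every feature was reported, no gene was to be named and cell type markers did not apply, as the table holds no value per gene. The members and tests were chosen with earlier results of these data known. Alternatives were minimums of 1, 5 and 20 cells, medians, pooled cells and the 25th to 75th percentile of contacts. Others were all listed cells for part of the features, G1 and early-S groups only, leave-one-out and the library holding both gates as a block. Pearson's r was a further one, and matched bins and a second split were added after the data were seen. The test was tested on simulated data. Software was scipy 1.17.1, pandas 2.3.3 and numpy 2.4.6 under Python 3.11.15, with figures from matplotlib 3.10.9.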

Additional observations from a re-analysis of the deposited data

How the results depend on the processing

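Of 203 alternative values of the 15 gate differences (early-S gate minus G1 gate), 193 kept the sign, and 9 features kept it under every alternative run for them. A minimum of 20 cells repeated the main values, and minimums of 1 and 5 cells gave equal values. The 203 values are therefore not all separate checks. Left out library by library, the short-range difference lay between 12.8 and 13.7 points and the replication difference between 0.106 and 0.121. The difference in contacts was 1343 without diploid 19 and 65577 without diploid 20. Without diploid 20 the alignment difference was 0.0147 (-0.0172 without diploid 19), and without diploid 19 the duplicated share was 0.256 points higher (-1.01 points without diploid 20). Over all listed cells the alignment difference was 0.0204, the share between chromosomes 0.0740 points with overlapping libraries, coverage deviation -0.103 and the share without digestion 0.520 points. This alternative was not run for the short-range share, the mitotic-band share, the far distance, the replication score, insulation or the loop enrichments. Whether those differences hold with failed cells included is therefore not known. The EE difference lay between -0.11 and -0.018 and the share without digestion between 0.387 and 1.79 points, without diploid 20 or 19 at either end. With the replicate block, which leaves the paired cells of diploid 15_16_17_18 alone (6 against 5 cells), insulation (-0.0668), LL enrichment (0.069), contacts (-4065) and the duplicated share (0.00428 points) turned. In the matched short-range bin of early-S-group cells, the far distance (-1.23 Mb), the alignment score (0.0223) and LL enrichment (0.064) turned against the difference over all cells. Over early-S-group cells without the bin, the far distance (-2.28 Mb) and the alignment score (0.0396) already had these signs. Against that set, insulation turned, from -0.0329 to 0.0407 in the bin, as did LL enrichment, from -0.004. Among early-S-group cells, leaving out 1 library gave ranges of -0.13 to 0.062 for EE enrichment, -0.051 to 0.043 for LL enrichment (0.018 without diploid 21), -8566 to 84781 for contacts and -0.755 to 0.217 points for the duplicated share, with diploid 19 or 20 left out at either end. With at least 1 cell per library, LL enrichment (0.039) and coverage deviation (0.0209) turned in this group. In the G1 gate the mean relation of replication score and insulation was -0.064 as Pearson's r. The count of features without overlap was 8 with at least 1 or 5 cells, 9 in the matched bin and 11 in the 25th to 75th percentile of contacts. It was 14 without diploid 19 and 15 without diploid 20. The counts of 14 and 15 set 2 libraries against 1, where a lack of overlap is easier to reach, so they do not show a stronger separation. The cause of these turns was not tested. Composition differences kept their sign in all 21 alternative values. G1-group cells could not be compared between the gates, since the early-S gate held 4. The number of libraries, 2 per gate, limits every comparison.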
